A study of Mus musculus with 48 samples.

Results

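The genes described here are 34 genes of the response to low oxygen and of glycolysis, chosen by symbol, of which 31 could be measured among the 19938 mouse genes with a transcript cluster of their own on the array. Each gene was represented by the cluster with the highest mean log2 signal over the 48 arrays. Gpi1 and Eno1 had no cluster in the annotation table used here, and the clusters for Gapdh also named other genes, so these 3 genes were not analysed here. By role, the 31 measured genes comprised 2 transporters, 12 glycolytic enzymes, 3 regulators of glycolytic flux, 2 hypoxia-inducible factors, 2 prolyl hydroxylases that sense oxygen and 10 further hypoxia targets.

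Cells short of oxygen stabilize the alpha subunits of the hypoxia-inducible factors, encoded by Hif1a and Epas1, which prolyl hydroxylases otherwise mark for degradation by way of the von Hippel-Lindau protein. The stabilized factors pair with Arnt, bind a short core motif in DNA and raise transcription of genes for glucose uptake, glycolysis, lactate export, pH control and vessel growth. Solid tumors of the breast commonly hold poorly perfused regions in which this program is active, and tumor cells also run glycolysis at a high rate when oxygen is present. Regulation of the alpha subunits is largely at the level of protein, which arrays of RNA do not measure.

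RNA was measured in 48 primary mammary tumors, 4 independent tumors from each of 12 models, with a separate array for each tumor. Every model was 1 cell line, implanted in the fourth mammary fat pad of immunocompetent syngeneic hosts, which by the study's methods were females several weeks old, and tumors were harvested untreated at a diameter of 0.5 to 1 cm. The BALB/c lines TS/A-E1, F311, EMT-6, 4T1 and D2A1 and the C57BL/6 line E0771 came from spontaneous tumors, the FVB/N lines Met-1, MVT-1, M6, HRM-1 and 6DT1 from tumors of genetically engineered mice, and R3T was an engineered 129Sv line. MVT-1 came from a mouse carrying both Myc and VEGF transgenes under the MMTV promoter, which is active in mammary epithelium, and the labels do not name the engineered alleles of the other lines. There was no normal mammary gland, cell culture or oxygen measurement among the samples analysed here, so every comparison is between tumor models. Surrounding and necrotic tissue had been cut away before freezing, and necrosis lies next to the poorest oxygen supply. The 4 tumors of a model are replicates of 1 line, and p-values measure the spread between such tumors.

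The models differed in epithelial genes, and the tumors in how much host tissue they held. Krt8, a keratin of luminal epithelium, had a model mean of at least 11.01 on the log2 scale in every model, while the mean of Epcam, an epithelial adhesion protein, was below 7 in 3 models and was lowest in D2A1 at 6.31, close to the array medians of 6.76 to 6.99. The mean over 11 luminal genes, relative to their medians over the 48 tumors, was lowest in E0771 (-2.42 ± 1.01) and D2A1 (-2.39 ± 0.22) and highest in HRM-1 (1.29 ± 0.12, SD, n = 4). In 9 tumors a score of adipocyte genes (9 of 10 listed genes measured) or of B cell genes (7 of 8 measured) exceeded 2.5, the score being the mean log2 signal relative to the median of the 48 tumors. These tumors were 4T1 replicate 3, 6DT1 replicates 2 and 3, E0771 replicate 1, EMT-6 replicate 3, F311 replicates 1 and 2, Met-1 replicate 2 and R3T replicate 2. Their adipocyte scores ran from 0.02 to 4.37 and their B cell scores from -0.05 to 4.92, against -1.02 to 2.08 and -0.28 to 1.63 in the other 39 tumors. Results are given with and without these tumors where they differ. Fat was not the only content that differed in them. In 6DT1 replicates 2 and 3 the basal epithelial score was 1.96 and 2.84, against -0.81 and -0.78 in replicates 1 and 4. The luminal score was 0.02 and -0.09 in replicates 2 and 3, against -2.07 and -2.11 in replicates 1 and 4. In tissue RNA, fewer cells of a type and less RNA per cell cannot be told apart.

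Promoters are shown for 5 of the genes that carry the core of the hypoxia response element, ACGTG, to which the hypoxia-inducible factors bind. Promoter sequences from RefSeq (GRCm38.p6), from 250 bases before to 50 bases after each transcription start, matched 32 of the 34 genes, with 44 promoters in all, and Epas1 and Ndrg1 had no entry. On either strand, ACGTG was found in 54.55% of these 44 promoters and in 19.62% of the 32851 promoters in the table. The share for GCGTG, a second form of the core, was 56.82% against 32.39%, and the palindrome CACGTG, which counts as ACGTG on both strands, was found in 9.09% against 7.15%. By gene, 22 of the 32 held ACGTG in at least 1 promoter (68.75%, against 21.78% of all genes with a promoter). Adm, Eno1, Eno2 and Gpi1 were among those without it. The promoters of the listed genes were also richer in G and C, with a median of 64.83% against 52.67%, and the motif counts were not corrected for this. Below, positions are those of a match's first base relative to the start, and ACGTG and its reverse complement are in capitals, each sequence being written 5′ to 3′ on the strand of the gene. Ldha, which encodes the lactate dehydrogenase subunit that favours lactate formation, held 5 matches (chr7:46845554-46845853, plus strand), with 2 of the palindromes.
Ldha: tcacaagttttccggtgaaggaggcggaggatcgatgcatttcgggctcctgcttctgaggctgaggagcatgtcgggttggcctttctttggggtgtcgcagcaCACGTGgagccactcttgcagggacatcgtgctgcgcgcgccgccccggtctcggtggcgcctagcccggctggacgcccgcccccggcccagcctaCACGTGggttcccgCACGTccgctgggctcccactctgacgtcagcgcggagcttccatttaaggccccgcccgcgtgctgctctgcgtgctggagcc
Pgk1, for phosphoglycerate kinase, held matches at -150 and -131 relative to the start (chrX:106186850-106187149, plus strand).
Pgk1: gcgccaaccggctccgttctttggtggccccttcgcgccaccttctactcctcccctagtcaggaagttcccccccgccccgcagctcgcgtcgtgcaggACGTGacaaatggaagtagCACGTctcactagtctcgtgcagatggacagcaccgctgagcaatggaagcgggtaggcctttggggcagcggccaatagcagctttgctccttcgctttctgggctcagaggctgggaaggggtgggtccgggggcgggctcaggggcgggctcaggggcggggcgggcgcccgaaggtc
Bnip3, which encodes a mitochondrial protein of mitophagy, held the palindrome at -108 (chr7:138909457-138909756, minus strand).
Bnip3: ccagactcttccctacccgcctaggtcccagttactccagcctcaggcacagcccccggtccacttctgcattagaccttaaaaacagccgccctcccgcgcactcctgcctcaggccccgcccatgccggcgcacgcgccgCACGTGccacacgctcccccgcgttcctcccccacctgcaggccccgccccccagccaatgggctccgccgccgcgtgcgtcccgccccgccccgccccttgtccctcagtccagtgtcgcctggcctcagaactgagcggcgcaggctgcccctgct
Slc16a3, for the lactate exporter MCT4, held matches at -27 and -14 (chr11:120948817-120949116, plus strand).
Slc16a3: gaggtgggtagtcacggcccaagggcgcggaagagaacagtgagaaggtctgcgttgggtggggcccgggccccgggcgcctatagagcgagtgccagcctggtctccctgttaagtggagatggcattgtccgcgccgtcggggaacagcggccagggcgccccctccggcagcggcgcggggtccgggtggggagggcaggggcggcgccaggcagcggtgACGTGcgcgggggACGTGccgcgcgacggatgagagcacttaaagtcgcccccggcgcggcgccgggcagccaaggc
Car9, for the cell-surface carbonic anhydrase IX, held 1 match at -18 (chr4:43506776-43507075, plus strand).
Car9: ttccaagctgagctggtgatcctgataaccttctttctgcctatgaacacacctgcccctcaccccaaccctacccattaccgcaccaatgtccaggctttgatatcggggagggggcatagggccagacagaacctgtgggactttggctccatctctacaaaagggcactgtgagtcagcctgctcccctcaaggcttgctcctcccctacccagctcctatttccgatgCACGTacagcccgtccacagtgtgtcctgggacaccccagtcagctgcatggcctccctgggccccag
A match describes the letters of this window and is not evidence of binding.

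Of the 31 genes, 25 differed over the 12 models in the F-test of limma at an adjusted p under 0.05, a share of 80.6% where 70.4% of all genes passed. The 6 that did not pass were Slc2a1 (adjusted p = 0.126), Hk1 (0.0566), Pgk1 (0.0739), Pkm (0.0939), Epas1 (0.075) and P4ha2 (0.214). Without the 9 tumors rich in fat or B cell genes 30 passed, the 25 among them, where 71.8% of all genes did, and Hk1 alone did not pass. The distance from the lowest to the highest model mean had a median of 1.21 on the log2 scale over the 31 genes and of 0.68 over all genes. The pooled SD among tumors of a model was likewise larger, with a median of 0.37 against 0.15, and the share of variance lying among models had a median of 55.5% against 62.4%. By these medians the genes varied more than genes in general, both between models and among tumors of the same model. All genes included dim ones, and the comparison was not matched for signal. R3T had the lowest and EMT-6 the highest mean over the 31 genes.

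**Figure D1:**
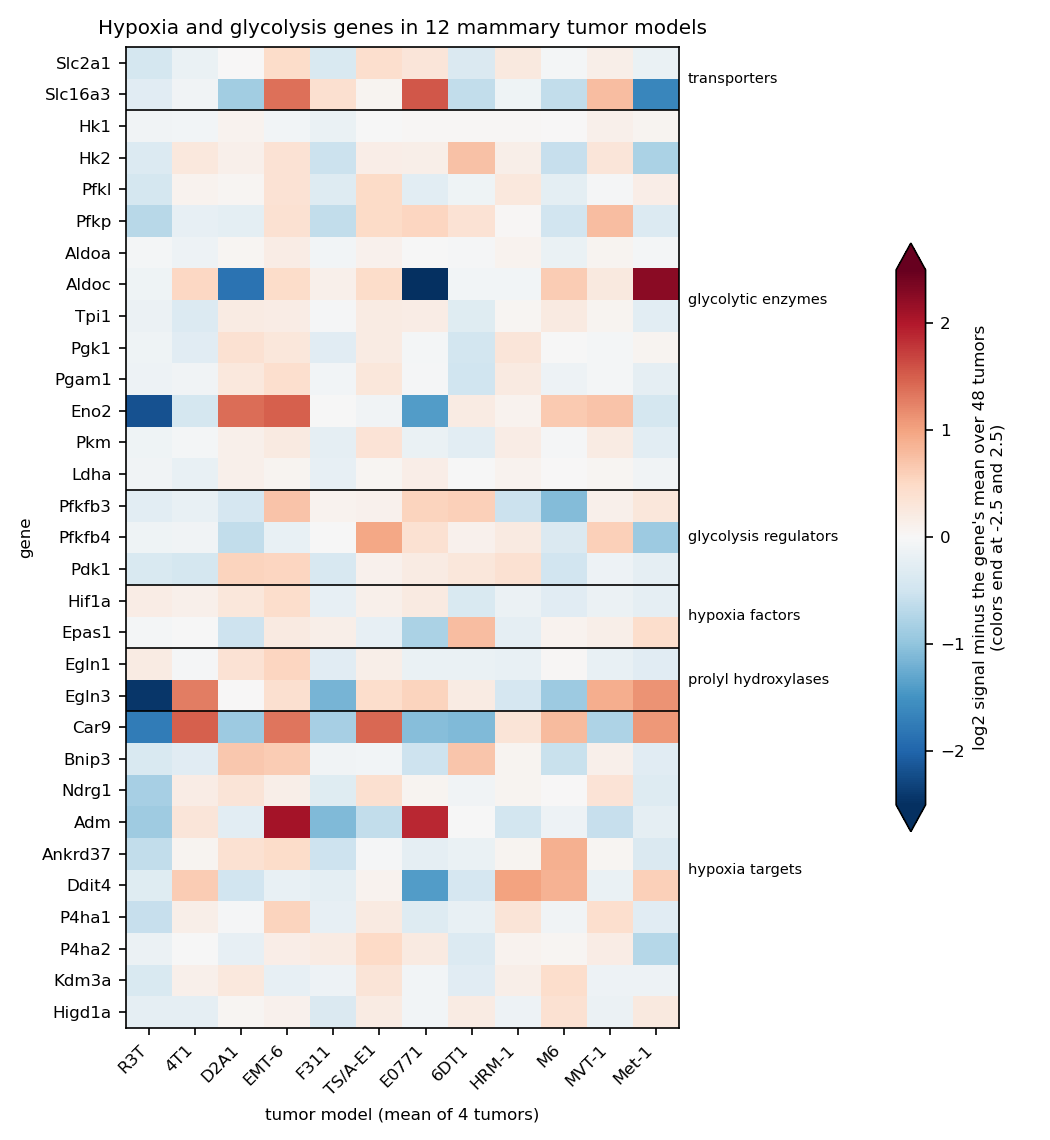
Heat map of the 31 genes, grouped by role (rows), in the 12 models (columns, mean of 4 tumors each), with color giving the difference in log2 signal from the mean of all 48 tumors. Aldoc, Eno2, Egln3, Car9, Adm and Slc16a3 show the strongest colors, with distances between the lowest and highest model means of 3.17 to 4.86, while Hk1, Aldoa and Ldha stay near 0.

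Among the transporters, the lactate exporter Slc16a3 separated the models and the glucose transporter Slc2a1 did not pass the test. Slc16a3 signal was 11.69, 11.98, 11.81 and 11.93 in the 4 E0771 tumors and 11.61, 11.82, 11.45 and 11.85 in EMT-6, against 8.30, 8.08, 9.18 and 9.08 in Met-1. The lowest E0771 or EMT-6 tumor thus lay above the highest Met-1 tumor, and the means of E0771 and Met-1 differed by 3.19 on the log2 scale, or 9.12-fold (adjusted p of the F-test = 2.11e-05). The 4 F311 tumors did not form a group, at 7.91, 11.23, 11.80 and 11.84, the low value being that of replicate 1, which had an adipocyte score of 3.79 and a B cell score of 4.92. Tumors of 6DT1 were split in the same manner, with 10.54 and 11.29 in replicates 1 and 4 and 8.81 and 8.08 in the fat-rich replicates 2 and 3. Slc2a1, which encodes the main glucose importer GLUT1, was lowest in R3T (11.88, 11.47, 11.99 and 11.75) and highest in EMT-6 (12.68, 12.62, 12.43 and 12.96). These tumor values did not overlap, but in 6DT1 the gene ran from 10.60 to 12.79 within a single model. Its adjusted p was 0.00774 without the tumors rich in fat or B cell genes.

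Among the glycolytic enzymes, Aldoc and Eno2 varied most and Hk1, Aldoa and Ldha least. Aldoc, the aldolase best known from brain, had the widest distance of all 31 genes. Its signal was 12.54, 11.37, 12.74 and 12.50 in Met-1, 8.58, 8.30, 8.11 and 7.77 in D2A1, and 8.53, 6.84, 7.11 and 7.23 in E0771. The Met-1 and E0771 means, 12.29 ± 0.62 and 7.43 ± 0.75 (SD, n = 4), differed 29.1-fold, and the F-test gave an adjusted p of 2.97e-15. All other tumors lay between 9.42 and 11.02, so Met-1 stood above and D2A1 and E0771 below the remaining 9 models without overlap. Within Met-1 and E0771 the tumor nearest the other models was in each case the tumor rich in fat or B cell genes. Eno2, the enolase known from neurons, was 6.52, 7.13, 6.66 and 6.72 in R3T, close to the array medians, and 10.50, 10.26, 9.88 and 11.09 in EMT-6. The difference between these means was 3.67 (adjusted p of the F-test = 1.19e-07), and replicates 1, 3 and 4 of R3T were lower than any tumor of another model, the next being E0771 replicate 1 at 7.13. Both aldolases catalyse the same step, and Aldoa, the ubiquitous form, differed by only 0.36 between M6 (12.61, 12.77, 12.77 and 12.69) and EMT-6 (13.07, 13.10, 13.01 and 13.11), or 1.28-fold (adjusted p = 0.0344).

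Of the other enzymes, Pfkp, the platelet form of phosphofructokinase, ranged from 9.64 in R3T to 11.11 in MVT-1 (adjusted p of the F-test = 2.94e-08), and Hk2, the inducible hexokinase, from 8.58 in Met-1 to 10.10 in 6DT1 (4.82e-05). The liver form Pfkl spanned 0.92, from R3T to TS/A-E1. Apart from Eno2, the genes measured for the lower steps of the pathway each spanned less than 1 on the log2 scale. The spans were 0.58 for triose phosphate isomerase (Tpi1), 0.84 for Pgk1, 0.90 for phosphoglycerate mutase (Pgam1), 0.61 for pyruvate kinase (Pkm) and 0.38 for Ldha. By mean signal these genes ranked from percentile 99.2 of all genes (Pgam1) to 99.9 (Ldha), and flattening of differences at such signal was not tested. Ldha passed the test all the same (adjusted p = 0.00124), with a pooled SD of 0.12, and its means lay between 12.83 in F311 and 13.21 in E0771. Several of these genes have near-identical processed copies in the mouse genome, and probes may not separate them. The clusters that named Pgk1, Pgam1 and Pkm followed each other over the 48 tumors, with an r of at least 0.98 within each gene. Clusters whose probes do not separate copies would do so too, so this agreement does not bear on identity.

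The smallest distance, 0.29 for hexokinase 1 (Hk1), needs a caution on identity. The cluster used, which had the highest mean, tracked 16 clusters that name both Hk1 and the ribosomal protein gene Rpl17 (Pearson r over 48 tumors of 0.70 to 0.89) and had an r of 0.01 with Pkm. In F311 it read 12.58, 12.41, 12.24 and 12.51, and in MVT-1 12.80, 12.72, 12.59 and 12.78. The other Hk1 cluster had an r of 0.03 to 0.10 with the same 16 clusters and of 0.62 with Pkm. By that cluster, a choice made after the data were seen, Hk1 ran from 9.94 in M6 to 10.71 in TS/A-E1 and passed the F-test (adjusted p = 0.00124).

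The bifunctional enzymes that set the level of fructose 2,6-bisphosphate, an activator of phosphofructokinase, and the kinase of pyruvate dehydrogenase all differed among the models. Pfkfb4 signal was 9.21, 9.10, 9.39 and 9.17 in TS/A-E1, 8.60, 8.74, 8.85 and 9.19 in MVT-1 and 7.25, 7.72, 7.24 and 7.12 in Met-1. The means of TS/A-E1 and Met-1 differed by 1.88, or 3.69-fold (adjusted p = 1.01e-10), without overlap of the tumors. Pfkfb3 was lowest in M6 (7.82 ± 0.39) and highest in EMT-6 (9.61 ± 0.12, SD, n = 4), with an adjusted p of 2.76e-04. Its deviations from model means had, with the adipocyte score, an r of 0.81 over 48 tumors and of 0.39 without those rich in fat or B cell genes. Pdk1, the pyruvate dehydrogenase kinase, was 8.71, 9.05, 8.16 and 8.85 in M6 and 9.92, 9.46, 9.74 and 9.78 in D2A1, a difference of 1.03 (adjusted p = 1.93e-05). In F311 alone the tumors ran from 8.04 to 9.44, a wider span than the distance between model means.

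The 2 factors differed in how they varied. Relative to the pooled SD, the distance between models was larger for Hif1a than for any of the other genes but Aldoc, with tumor values of 11.95, 11.97, 11.87 and 11.99 in EMT-6 and 11.05, 11.04, 11.08 and 11.37 in 6DT1. The models thus differed by at most 1.75-fold, but the pooled SD was 0.10 and the adjusted p was 7.66e-13. TS/A-E1, 4T1, R3T, E0771 and D2A1 followed EMT-6, with means of 11.64 to 11.80, and all tumors of these 6 models (11.53 to 11.99) lay above all tumors of the FVB/N models and F311 (11.04 to 11.49). Epas1, which encodes HIF-2α and is strongly expressed in endothelium and fat, was 9.68, 11.42, 11.74 and 9.88 in 6DT1 and 10.65, 8.31, 8.84 and 8.63 in E0771. In both models the high values were those of the fat-rich tumors, and Epas1 did not pass the F-test with all tumors. Its deviations from model means had an r of 0.88 with the adipocyte score and of 0.86 with the endothelial score, and of 0.57 and 0.60 without the 9 tumors, when Epas1 passed (adjusted p = 9.97e-05).

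Of the prolyl hydroxylases, Egln3, itself a target of the pathway, varied far more than Egln1. Egln3 signal was 7.38, 7.72, 8.52 and 7.51 in R3T and 11.67, 11.63, 11.18 and 11.51 in 4T1, and the means differed by 3.72, or 13.1-fold (adjusted p of the F-test = 2.46e-11). Apart from F311 replicate 1, at 8.48, no tumor of another model was as low as the highest R3T tumor. In Met-1 the signal was 11.88, 11.88 and 11.80 in 3 tumors and 9.78 in replicate 2, which had a B cell score of 4.87. Egln1, the main oxygen sensor in normal cells, was 9.44, 9.79, 10.06 and 10.13 in F311 and 10.65, 10.61, 10.52 and 10.90 in EMT-6, a difference of 0.81 (adjusted p = 1.07e-04). R3T was among the higher models for Egln1, at 10.34 ± 0.21 (SD, n = 4), and Hif1a, at 11.71 ± 0.05, while it was the lowest for Egln3.

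**Figure D2:**
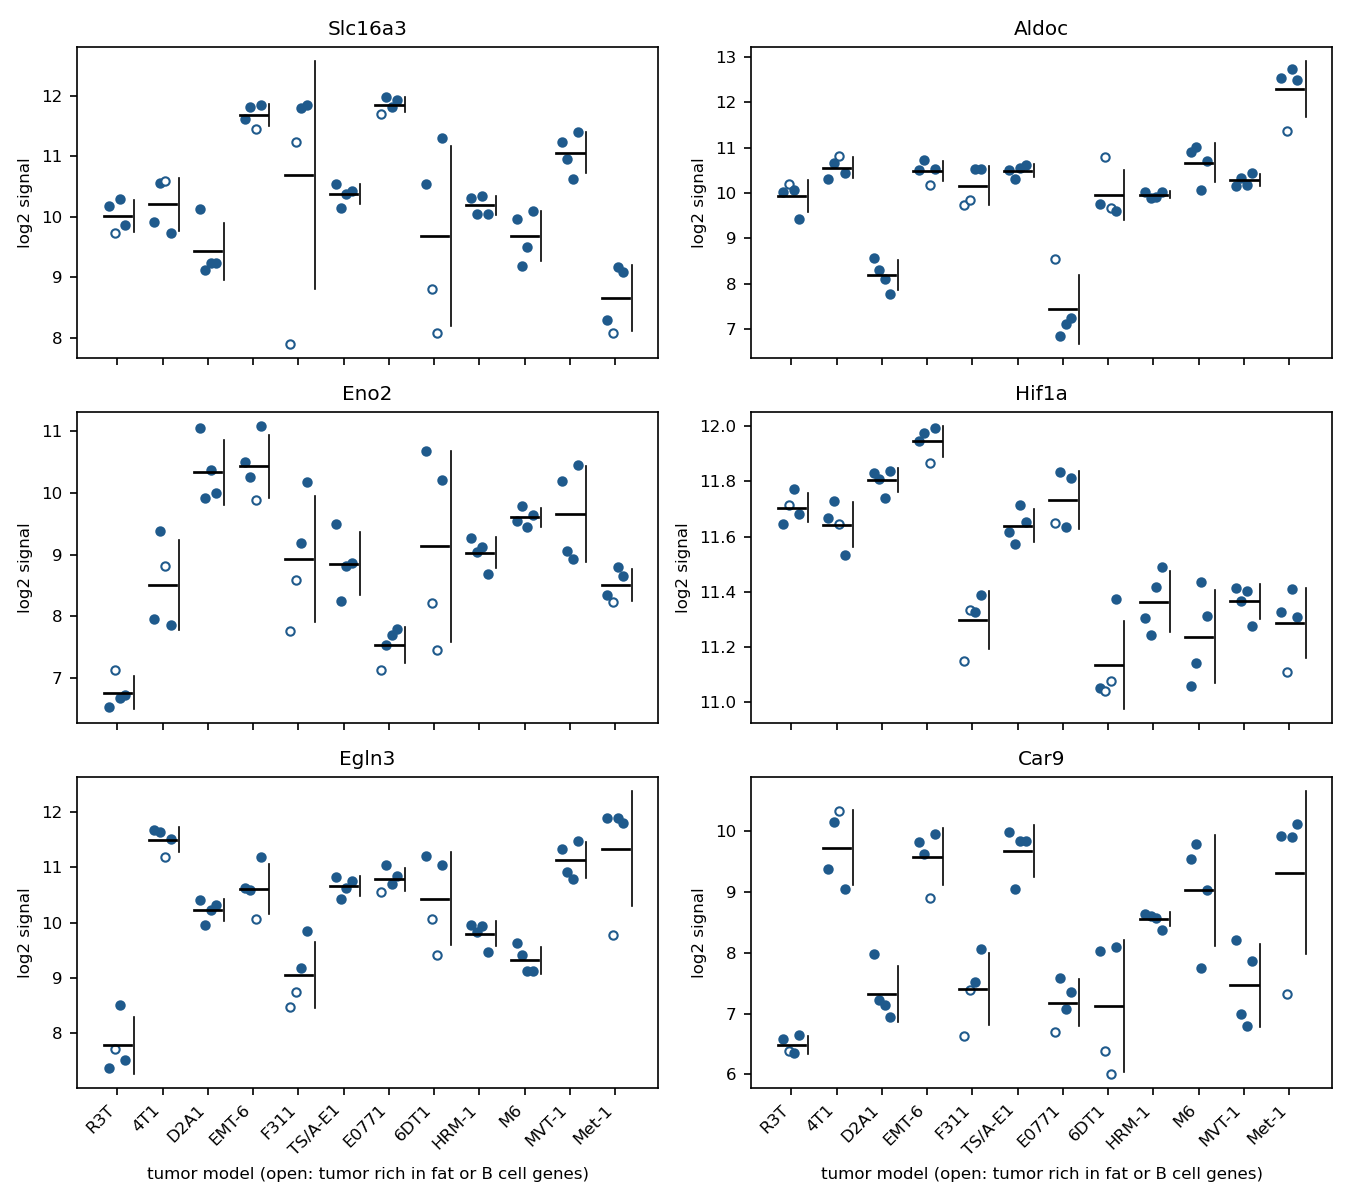
Log2 signal (vertical axes) of Slc16a3, Aldoc, Eno2, Hif1a, Egln3 and Car9 in each of the 48 tumors, by model, with a horizontal bar for the model mean and a vertical bar for the SD (n = 4). Open points are the 9 tumors rich in fat or B cell genes, such as the F311 tumor at 7.91 for Slc16a3, and the R3T tumors sit at the bottom for Eno2, Egln3 and Car9.

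Among the 10 hypoxia targets, Car9 and Adm varied most. Car9 signal was 9.37, 10.15, 10.34 and 9.05 in 4T1, 9.99, 9.05, 9.83 and 9.84 in TS/A-E1 and 9.83, 9.63, 8.91 and 9.96 in EMT-6, but 6.57, 6.38, 6.34 and 6.65 in R3T. The R3T values lay below the array medians, and the means of 4T1 and R3T differed 9.46-fold (adjusted p of the F-test = 8.50e-09). In Met-1, 3 tumors were at 9.93, 9.91 and 10.13 and replicate 2 was at 7.32, and in 6DT1, 2 tumors were at 8.02 and 8.09 and the fat-rich replicates were at 6.39 and 6.01. Adm, which encodes the vasoactive peptide adrenomedullin, was 10.72, 9.93, 9.98 and 11.57 in EMT-6 and 10.30, 10.67, 9.95 and 10.50 in E0771. All other tumors lay at or below 9.15 except 4T1 replicate 2 at 10.24. The lowest mean was that of F311, at 7.38 ± 1.20 (SD, n = 4), where replicate 1 read 9.15 and the others 6.56 to 7.06. Higd1a, a mitochondrial protein of the hypoxia response, had the smallest distance, 0.75 (adjusted p = 0.0338), with 6.34, 6.21, 6.54 and 6.65 in F311 and 7.22, 7.40, 6.86 and 7.28 in M6. Its signal was near the array medians in every model.

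The remaining targets each had their own order of models. Ddit4, an inhibitor of mTORC1 signaling, ran from 8.54 ± 0.17 in E0771 to 10.93 ± 0.12 (SD, n = 4) in HRM-1 (adjusted p = 4.18e-09). Ankrd37 was highest in M6 at 8.84 and lowest in R3T at 7.33 (adjusted p = 5.82e-05). Bnip3 was highest in 6DT1 at 11.44 and lowest in M6 at 10.17 (adjusted p = 6.38e-04). Ndrg1, a stress-induced growth suppressor, was highest in TS/A-E1 at 12.19 and lowest in R3T at 10.96 (adjusted p = 0.00818). The collagen prolyl hydroxylase subunit P4ha1 was highest in EMT-6 at 11.22 and lowest in R3T at 10.09 (adjusted p = 0.0024), whereas P4ha2, which spanned 1.21, did not pass. The histone demethylase Kdm3a spanned 0.81, from R3T to M6 (adjusted p = 0.0309). R3T therefore had the lowest mean for 5 of these 10 genes (Car9, Ndrg1, Ankrd37, P4ha1 and Kdm3a).

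The mean over the 31 genes, each taken relative to its mean over the 48 tumors, summarises these patterns and carries no test. It was highest in EMT-6, at 0.45 ± 0.20, and lowest in R3T, at -0.46 ± 0.07 (SD, n = 4), with TS/A-E1 at 0.24 ± 0.15 and F311 at -0.25 ± 0.36 next. The 4 R3T tumors lay between -0.54 and -0.37 and the 4 EMT-6 tumors between 0.22 and 0.71, without overlap. Single tumors ran from -0.70 in F311 replicate 1 to 0.71 in EMT-6 replicate 4, and 48.2% of the variance of this mean lay among models. In 6DT1 replicates 1 and 4 were at 0.34 and 0.37 and the fat-rich replicates 2 and 3 at -0.35 and -0.57. Without the 9 tumors rich in fat or B cell genes, EMT-6 (0.53) and R3T (-0.45) remained the ends of the order, whereas 6DT1 moved from -0.05 to 0.35 (2 tumors) and F311 from -0.25 to 0.03 (2 tumors). E0771 had the second lowest mean for the 12 enzymes, -0.29 ± 0.04, and the 10 hypoxia targets spanned 1.12, again from R3T at -0.61 to EMT-6 at 0.51. The mean over the 12 enzymes and that over the 10 targets had a Pearson r of 0.85 in deviations from model means over 48 tumors and of 0.79 over the 12 model means, values that share arrays and host content.

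**Figure D3:**
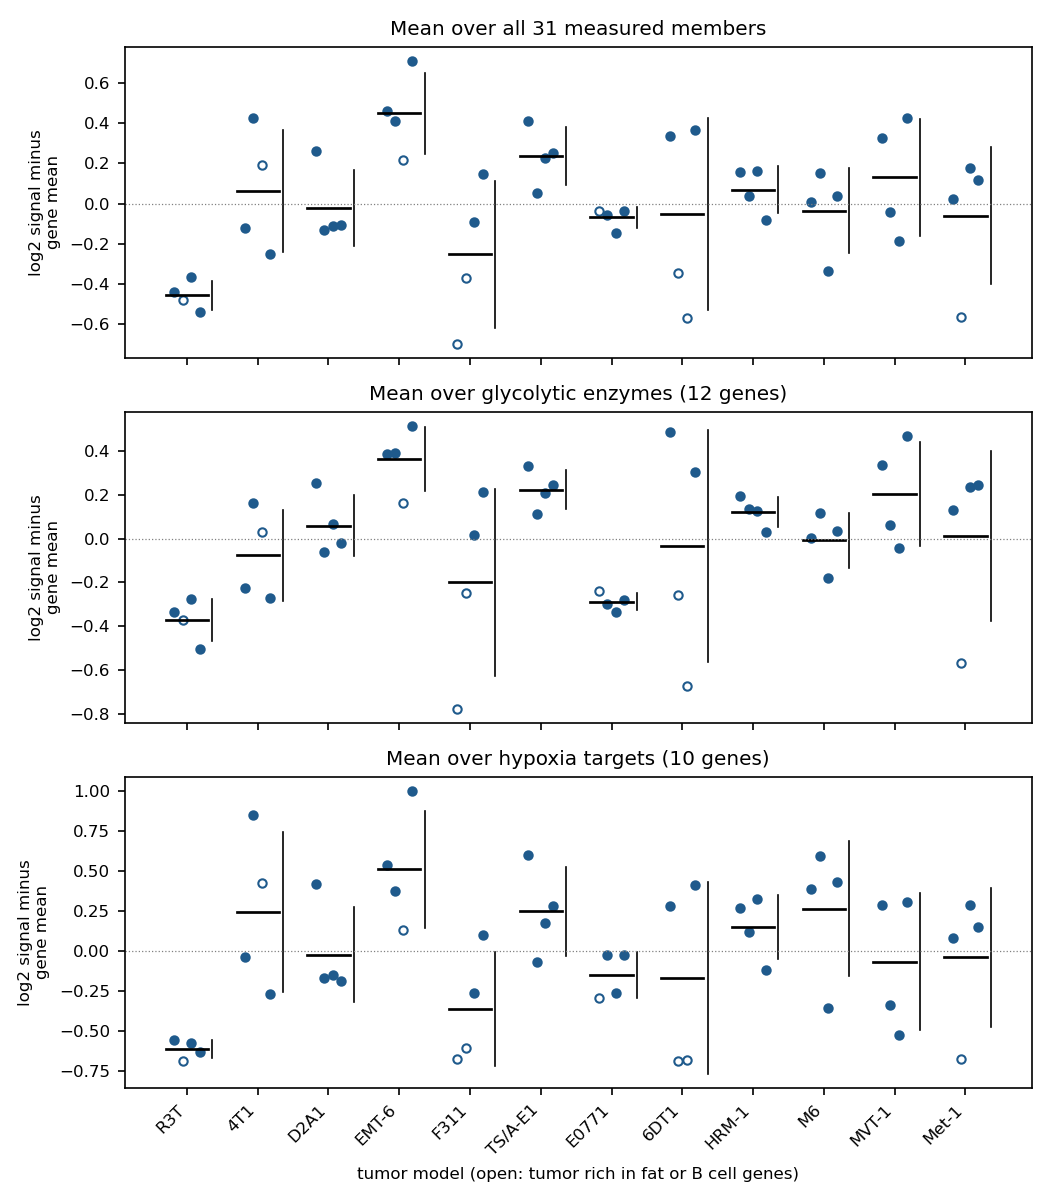
Mean over all 31 genes, over the 12 glycolytic enzymes and over the 10 hypoxia targets (vertical axes, log2 signal relative to each gene's mean) in each tumor, by model, with bars for the model mean and the SD (n = 4). R3T lies lowest and EMT-6 highest in each panel, and the open points, tumors rich in fat or B cell genes, lie at the bottom in 6DT1, F311 and Met-1.

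Each model was next compared with the mean of the other 11 by contrasts of the same limma fit, adjusted over all genes. The contrasts share tumors, so the counts of different models are not independent. In EMT-6, 14 of the 31 genes were higher, where 11.3% of all genes were, and 0 were lower (12.6% of all genes), also at an unadjusted p under 0.05. By the methods' t-test 3 were higher and 0 lower. The median difference of the 31 genes in EMT-6 was 0.42, against -0.03 over all genes. The largest differences were 2.26 for Adm (SE 0.37, adjusted p = 1.36e-05), 1.63 for Eno2 (SE 0.35, 4.82e-04), 1.51 for Slc16a3 (SE 0.39, 0.00297) and 1.46 for Car9 (SE 0.35, 0.00172). The other 10 were Pfkfb3, Bnip3, P4ha1, Pdk1, Egln1, Ankrd37, Hif1a, Pgam1, Pfkp and Aldoa, so every role was represented. Of these, the calls of Aldoa, Ankrd37 and Pfkp ended with arrays centred on their medians, and those of Ankrd37 and Pfkp also with quantile normalization. The count was 9 without replicate 1, 9 without replicate 2 and 6 without replicate 4, and 20, the 14 among them, without the 9 tumors rich in fat or B cell genes (15.2% of all genes).

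In R3T, 8 genes were lower, where 10% of all genes were, and 1 was higher (13.2%). Egln3 was lower by a log2 difference of -2.66 (SE 0.25, adjusted p = 1.68e-10), Eno2 by -2.38 (SE 0.35, 1.62e-06), Car9 by -1.91 (SE 0.35, 6.36e-05) and Ndrg1 by -0.90 (SE 0.21, 0.00102). Pfkp, Ankrd37, P4ha1 and Pfkl were also lower, although the call of Pfkl ended on leaving out any 1 of the 4 R3T tumors, and that of P4ha1 without replicate 4, and Hif1a was higher by 0.21 (SE 0.05, adjusted p = 0.00355), a call that ended with arrays centred on their medians. The median difference of the 31 genes was -0.30, against -0.01 over all genes. Without the tumors rich in fat or B cell genes, of which R3T held 1, 18 of the 31 were lower (14.6% of all genes) and Hif1a was again the only gene higher, by 0.18. These 18 included the 8, and Slc2a1 (-0.54), Pgk1 (-0.20), Pkm (-0.22) and Ldha (-0.12) among the bright glycolytic genes.

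**Figure D4:**
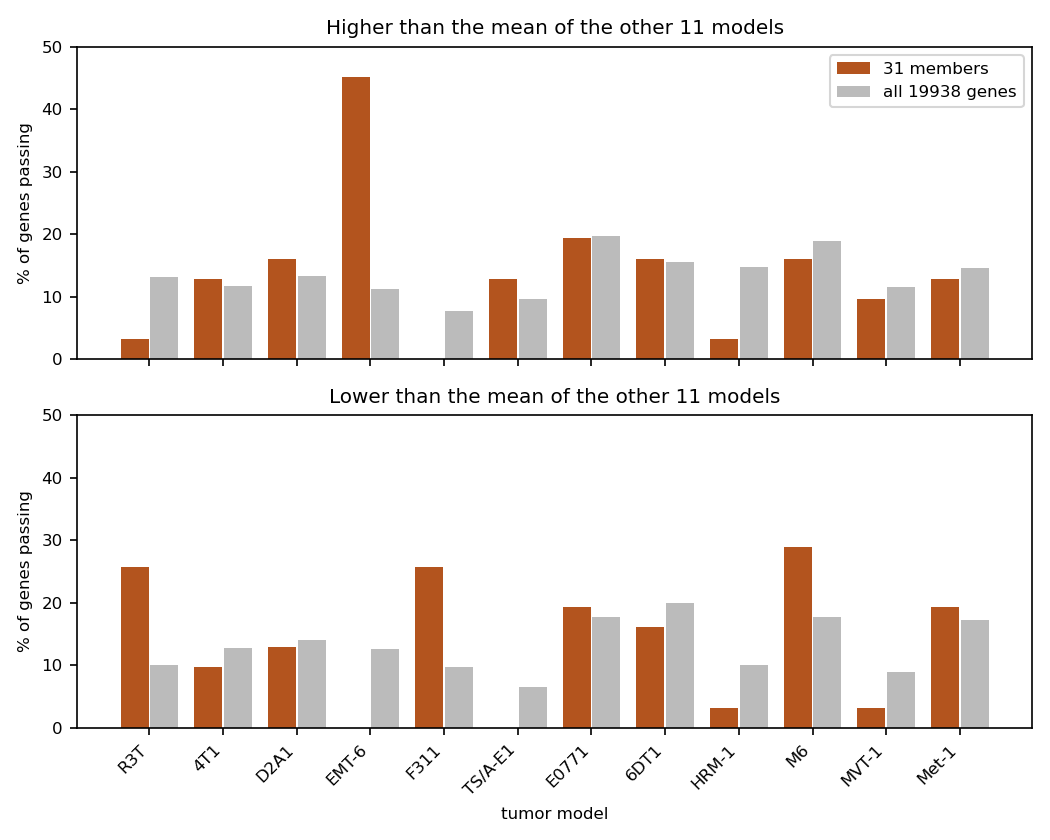
Percent of the 31 genes (orange bars) and of all genes (grey bars) that were higher (upper panel) or lower (lower panel) in each model than in the mean of the other 11, at an adjusted p under 0.05. EMT-6 stands out in the upper panel with 14 of 31 genes where 11.3% of all genes passed, and the orange bars of R3T, F311 and M6 exceed the grey ones most in the lower panel, with 8, 8 and 9 genes. F311 has no orange bar in the upper panel, and EMT-6 and TS/A-E1 have none in the lower.

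E0771 had 6 higher and 6 lower, where 19.8% and 17.8% of all genes were. Adm (2.05, SE 0.37, adjusted p = 2.44e-05) and Slc16a3 (1.70, SE 0.39, 4.56e-04) were higher, with smaller increases of Pfkp (0.59) and Pfkfb4 (0.42, lost without replicate 3). Aldoc (-2.84, SE 0.21, 4.00e-14), Eno2 (-1.53, SE 0.35), Ddit4 (-1.52, SE 0.20, 4.47e-08) and Car9 (-1.16, SE 0.35) were lower. 

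Met-1 had 4 higher and 6 lower, where 14.6% and 17.2% of all genes were. Aldoc was higher by 2.46 (SE 0.21, adjusted p = 3.81e-12), Egln3 by 1.22 (SE 0.25), Car9 by 1.18 (SE 0.35) and Ddit4 by 0.66 (SE 0.20), and Slc16a3 (-1.78, SE 0.39), Pfkfb4 (-1.0, SE 0.13, 6.52e-08), Hk2 (-0.86, SE 0.20) and P4ha2 (-0.78, SE 0.27) were lower. The call of Car9 ended without replicate 1, 3 or 4, that of Ddit4 without replicate 1 and that of P4ha2 without replicate 2. Replicate 2, in which 10 of the 31 genes lay far below the other 3 tumors, was the one rich in B cell genes, and without the 9 such tumors 8 genes were higher and 7 lower (19.1% and 23.0%).

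M6 had 5 higher and 9 lower, where 18.9% and 17.7% of all genes were. Ankrd37 (0.97, SE 0.19, adjusted p = 5.65e-05), Ddit4 (0.94, SE 0.20), Aldoc (0.69, SE 0.21) and Kdm3a (0.47, SE 0.17) were higher, and Pfkfb3 (-1.19, SE 0.25), Egln3 (-0.98, SE 0.25), Hk2 (-0.64, SE 0.20) and Bnip3 (-0.62, SE 0.23) were lower. The calls of Aldoc, Kdm3a and Bnip3 were each lost without at least 1 of the M6 tumors, and 9 genes in all were called without replicate 1. F311 had 0 higher (7.79% of all genes), also at an unadjusted p under 0.05, and 8 lower (9.76%), and the methods' t-test called 0 in either direction. Egln3 (-1.27, SE 0.25, adjusted p = 3.55e-04), Adm (-1.20, SE 0.37), Pfkp (-0.68, SE 0.16) and Hk2 (-0.60, SE 0.20) were the lowest relative to the other models. Hk1 was among the 8 by the cluster that tracked the Rpl17 clusters, and did not pass by its other cluster (-0.17, limma adjusted p = 0.42). That other cluster was lower in M6 (-0.58, limma adjusted p = 1.8e-04) and in D2A1 (-0.35, 0.0272), which the counts of these models leave out. In F311, 3 genes were called without replicate 2 and 5 without replicate 3, and Adm and Hk2 were among those lost. Without the tumors rich in fat or B cell genes, which leaves 2 F311 tumors, 4 were lower (11.2%) and 4 higher (13.0%), Slc16a3 by 1.42.

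In 4T1, 4 genes were higher and 3 lower, where 11.8% and 12.8% of all genes were. Car9 (1.62, SE 0.35, adjusted p = 5.44e-04), Egln3 (1.40, SE 0.25, 5.31e-05), Ddit4 (0.69, SE 0.20) and Aldoc (0.57, SE 0.21) were higher and Pdk1 (-0.48, SE 0.16), Tpi1 (-0.38, SE 0.13) and Ldha (-0.21, SE 0.06) lower. Without replicate 1, and without replicate 4, 4 genes were called, and the 3 lower genes were lost in both cases. The calls of Ddit4 and Aldoc were lost without replicate 2, and that of Aldoc also without replicate 3 or 4. Without the tumors rich in fat or B cell genes, 8 genes of glycolysis and its regulation were lower (17.1% of all genes), with Eno2 at -0.80 and Pgk1 at -0.49 added. TS/A-E1 had 4 higher (9.62%) and 0 lower (6.57%), also at an unadjusted p under 0.05, and by the methods' t-test 1 was higher and 0 lower. Car9 (1.57, SE 0.35, adjusted p = 0.00133), Pfkfb4 (1.06, SE 0.13, 7.85e-08), Pfkp (0.52, SE 0.16) and Pfkl (0.52, SE 0.18) were higher, and the calls of Pfkp and Pfkl were lost without replicate 1, 3 or 4, which left 2, and that of Pfkl also without replicate 2. Among BALB/c models, Car9 was thus high in 4T1, EMT-6 and TS/A-E1.

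D2A1 had 5 higher and 4 lower, where 13.4% and 14.1% of all genes were. Eno2 (1.52, SE 0.35, adjusted p = 7.92e-04), Bnip3 (0.73, SE 0.23), Pdk1 (0.60, SE 0.16) and Egln1 (0.40, SE 0.12) were higher and Aldoc (-2.01, SE 0.21, 9.05e-10), Car9 (-1.0, SE 0.35), Pfkfb4 (-0.67, SE 0.13) and Ddit4 (-0.53, SE 0.20) lower. The calls of Bnip3 and Egln1 were lost without replicate 1, and those of Car9 and Ddit4 without any 1 of the other 3 tumors. In 6DT1, 5 genes were higher and 5 lower, where 15.6% and 19.9% of all genes were. Epas1 (0.85, SE 0.30), Hk2 (0.80, SE 0.20, adjusted p = 0.00183), Bnip3 (0.76, SE 0.23) and Pfkfb3 (0.65, SE 0.25) were higher and Car9 (-1.21, SE 0.35), Pgam1 (-0.54, SE 0.14), Pgk1 (-0.51, SE 0.19) and Hif1a (-0.41, SE 0.05, 3.50e-07) lower. The calls of Epas1, Pfkfb3, Car9, Pgam1 and Pgk1 were lost without the 9 tumors rich in fat or B cell genes, of which this model held 2, and Eno2 was then higher by 1.44 and Hk2 by 1.35. With all other tumors kept, 5 genes were called without replicate 2 alone or replicate 3 alone. MVT-1 had Egln3 (0.99, SE 0.25, adjusted p = 0.00406), Pfkp (0.84, SE 0.16, 8.75e-05) and Pfkfb4 (0.66, SE 0.13, 2.01e-04) higher (11.6% of all genes) and Hif1a (-0.16, SE 0.05, 0.0296) lower (8.97%), and 7 were called without 6DT1 among the other models. HRM-1 had Ddit4 higher by 1.09 (SE 0.20, adjusted p = 4.19e-05; 14.8% of all genes) and Hif1a lower by -0.16 (SE 0.05, 0.0238; 10.1%). The Hif1a call of HRM-1 was lost without replicate 1, without replicate 2 and without the model E0771, and that of MVT-1 without replicate 2, 3 or 4, and both ended with arrays centred on their medians.

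Without the tumors rich in fat or B cell genes, more of the 31 genes passed in most of these models, also in models that held none of these tumors and so changed through the other 11. In D2A1, 9 were higher and 6 lower (16.7% and 20.2% of all genes), in MVT-1, 5 and 5 (16.2% and 17.2%), in HRM-1, 4 and 4 (18.3% and 16.0%), and in M6, 6 and 13 (22.0% and 23.7%). In E0771, 8 were higher and 9 lower (24.3% and 21.4%), and in 6DT1, with 2 tumors left, 8 and 1 (15.8% and 18.4%). In TS/A-E1, 8 were higher (14.0%), and in 4T1, 4 were higher (13.3%).

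BALB/c and FVB/N models were compared on model means, 5 against 5, and in these lines strain and origin (spontaneous or engineered) cannot be told apart. By limma 0 of the 31 genes passed, where 0.191% of all genes did, 1 had an unadjusted p under 0.05, and 0 passed by the methods' t-test. That gene was Hif1a, with model means of 11.30 to 11.94 in BALB/c and 11.14 to 11.37 in FVB/N and a difference of 0.39 (SE 0.11, adjusted p = 0.35). The groups overlapped through F311, the only BALB/c model in the range of FVB/N. With all 40 tumors and the model as a random block, Hif1a passed (limma adjusted p = 0.00363) and the other 30 genes did not. That fit used 1 correlation within models for all genes. Over the 12 models, Hif1a had 88.8% of its variance among models, above the median of 62.4% over all genes. Its p in that fit may therefore be too small.

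The genes moved together among tumors of the same model. In deviations from the model means over the 48 tumors, 385 of the 465 pairs of genes had a Pearson r above 0, with a median of 0.66. All 45 pairs of hypoxia targets had an r above 0 (median 0.75), as did 57 of 66 pairs of glycolytic enzymes (median 0.76). Over the 12 model means, 356 of the 465 pairs had an r above 0, with a median of 0.27. The genes thus agreed less closely over the models than among tumors of a model. Each gene was also set against the mean of the other 30. The values were 0.93 for Slc2a1, 0.92 for Ndrg1 and Egln1 and 0.91 for Pfkl, and Car9 (0.87) and Eno2 (0.88) were close behind. Low values were those of Aldoc and Hif1a (0.36), Pfkfb4 (0.30), Adm (0.19), Hk1 (-0.02), Pfkfb3 (-0.38) and Epas1 (-0.55). These correlations are descriptions, since the genes of 1 tumor share an array, its RNA and its host content.

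Host content moved with the module. Its mean had, in deviations from model means, an r of -0.56 with the adipocyte score, -0.59 with the endothelial score, -0.49 with the B cell score and 0.55 with a score of proliferation genes. Without the 9 tumors rich in fat or B cell genes these values were -0.08, -0.08, -0.23 and -0.19. For T and NK cell genes r was -0.54 over all tumors and -0.31 without the 9, and for basal epithelial genes it was -0.54 and 0.31. Over the other scores (fibroblast, luminal epithelium, macrophage, red cell and skeletal muscle) r ran from -0.41 to -0.13, and from -0.18 to 0.28 without the 9. The -0.41 was that of the red cell score, for which only 2 of 7 listed genes were measured. The agreement among the genes was still seen in those 39 tumors, again without a value for pairs of other genes. In them 403 of 465 pairs had an r above 0 (median 0.56), with medians of 0.72 for hypoxia targets and 0.63 for enzymes. Adm then had an r of 0.76 with the mean of the other genes and Pfkfb3 of 0.51, while Hif1a was at -0.02, Epas1 at -0.04 and Pfkfb4 at -0.13. A neutrophil score had an r of 0.04 with the module over all tumors and of 0.44 without the 9 tumors, and its part in the result was not tested.

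**Figure D5:**
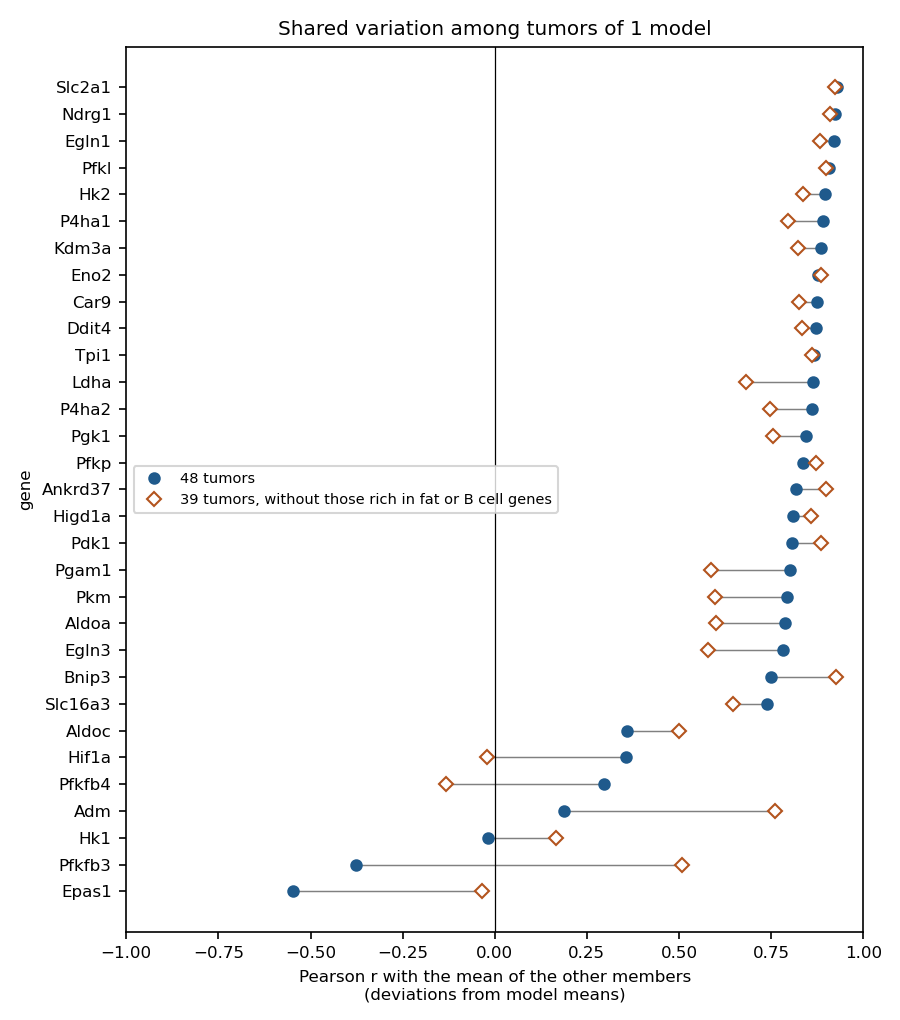
Pearson r of each gene (rows) with the mean of the other 30 genes, in deviations from the model means, over 48 tumors (filled circles) and over the 39 tumors left without those rich in fat or B cell genes (open diamonds). Slc2a1, Ndrg1, Egln1 and Pfkl are at 0.88 or above in both, Adm moves from 0.19 to 0.76, and Epas1 lies lowest over 48 tumors at -0.55.

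Related genes were compared over the 12 model means for 11 pairs, with permutation tests (2-sided) and Benjamini-Hochberg adjustment, and none passed with means of all tumors. The closest was Ldha with Pdk1, with an r of 0.76 (permutation p = 0.00503, adjusted p = 0.0553) and a rho of 0.75 (permutation p = 0.00761, adjusted 0.0837). Without 4T1 and F311, the models farthest from the median of Ldha, its r was 0.68 (permutation p = 0.0334). With model medians of all tumors in place of means the pair passed (r = 0.78, adjusted permutation p = 0.027). It also passed without the tumors numbered 2 (r = 0.78, adjusted permutation p = 0.021) and without those numbered 3 (r = 0.86, adjusted permutation p = 0.00154). Hif1a and Epas1 had an r of -0.59 (p = 0.0438, adjusted p = 0.241) and a rho of -0.52 (p = 0.0884, adjusted 0.324), with -0.73 without 6DT1 and EMT-6. Hif1a transcript did not rank the models as Car9 did, with an r of 0.09 (p = 0.763, adjusted p = 0.763) and a rho of 0.03 (p = 0.922). For Slc2a1 and Slc16a3, import of glucose and export of lactate, r was 0.54 (p = 0.0684, adjusted p = 0.251) and rho 0.53 (p = 0.0784) over models and r was 0.88 within models. For Egln1 and Egln3 r was -0.16 (permutation p = 0.627, adjusted p = 0.689) over models and 0.80 within models. The remaining 6 pairs (Hk1 with Hk2, Pfkl with Pfkp, Pfkfb3 with Pfkfb4, Aldoa with Aldoc, P4ha1 with P4ha2, and Car9 with Slc2a1) had r from -0.17 to 0.46 and unadjusted p from 0.135 to 0.605.

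Other genes of the same pathways were taken from lists fixed by symbol. The share of all genes that passed the F-test was 70.4%. Of 26 other hypoxia targets 24 passed, and Ero1a and Stc2 did not. Among the 26 was Loxl3, which a synonym put in place of the listed Loxl2, a gene without a cluster of its own. The smallest adjusted p-values were those of Zfp395 (3.35e-13, highest in M6), Stc1, the hormone stanniocalcin (3.40e-13, highest in 4T1 at 10.94), Car12, another carbonic anhydrase (8.03e-13, highest in Met-1 and lowest in R3T), and Plin2, a lipid droplet coat protein (1.51e-11, highest in R3T at 12.23). Of these 26 genes, 13 were lower and 1 higher in R3T, and 9 were higher and 1 lower in EMT-6, where the backgrounds are those given above. D2A1 had 8 higher and 1 lower (13.4% and 14.1% of all genes), and TS/A-E1 7 and 0 (9.62% and 6.57%). Met-1 had 6 higher and 8 lower (14.6% and 17.2%), and E0771 2 and 8 (19.8% and 17.8%). M6 had 5 higher and 6 lower (18.9% and 17.7%), and F311 0 and 5 (7.79% and 9.76%). In 4T1, 2 were higher and 3 lower (11.8% and 12.8%), and in 6DT1, 4 and 3 (15.6% and 19.9%). HRM-1 had 3 higher and 0 lower (14.8% and 10.1%), and MVT-1 1 and 2 (11.6% and 8.97%). All 14 other regulators of the factors passed, with the smallest p for Arnt2, a partner of the alpha subunits (1.31e-16, highest in R3T at 9.03), Eloc, a subunit of the von Hippel-Lindau ubiquitin ligase (4.14e-11), Os9 (6.29e-10) and the ubiquitin ligase Siah1a (7.57e-10). Of 26 other genes of glycolysis and pyruvate use 22 passed, and Hkdc1, Pgam2, Ldhc and Slc2a4 did not. The leading genes were Hk3, the hexokinase of myeloid cells (4.30e-11, highest in EMT-6 and lowest in M6), Bpgm, the mutase that forms 2,3-bisphosphoglycerate (1.61e-10), Pfkfb2 (2.67e-10, highest in Met-1) and Slc16a1, the monocarboxylate transporter MCT1 (3.45e-09, highest in EMT-6 at 11.33 and lowest in M6). Ptprc, a gene of all leukocytes, likewise had its highest model mean in EMT-6 (10.86) and its lowest in M6 (8.20), and the part of leukocytes in these values was not tested.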

How the data were processed

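Total RNA from each tumor had been amplified, labeled and hybridized to 1 Affymetrix mouse gene array, and for each array the authors deposited log2 signal, already processed, of 35556 transcript clusters, with values of 3.49 to 14.12. How the signal was summarized is not given in the sources used here, and array medians lay between 6.76 and 6.99. The platform annotation named 1 gene for 21789 clusters, several for 1621 and none for 12146, and the brightest cluster stood for each of 999 genes with several. Signals were taken as deposited, with no filter on dim genes. Groups and replicate numbers came from the labels, which give no batch, and no 2 arrays were identical.

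One mean per model was fitted with limma 3.58.1 (R 4.3.3), and tested with the F-test over 12 models and with each model against the other 11. The 5 BALB/c and 5 FVB/N models were compared with model means as values. Adjustment was by Benjamini-Hochberg over all 19938 genes, at a threshold of 0.05. Correlations used 100000 permutations (Python 3.11.15, numpy 2.4.6, pandas 2.3.3, scipy 1.17.1; figures with matplotlib 3.10.9). Fits were tested on simulated data. The genes, lists and marker sets were chosen with earlier results of these data known. Any of the 34 genes may be named; values per tumor are given for the genes with the widest and narrowest distance in each role (and, chosen after their values were seen, for Eno2, Adm and Aldoa, and the genes named without host-rich tumors), and in a contrast up to 4 genes in each direction among those that passed, the others by name only. For other lists, up to 4 genes with the smallest p are named, with those that failed where few, and for likeness to the mean of the 31 genes the leading 8. Alternatives were quantile normalization, centring of arrays, the mean of a gene's clusters, no dim genes, an intensity trend or robust prior, a term for the replicate number, no tumors rich in fat or B cell genes, the t-test and the one-way test named in the methods, and leaving out each tumor or model. The other Hk1 cluster and correlations without host-rich tumors were added after the data were seen. The number of arrays limits the precision. Protein measurements are not analysed here.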

Additional observations from a re-analysis of the deposited data

Results flagged for a closer look

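In 456 groups of 4 tumors (each gene or mean in each model), 32 values lay so far from the nearest of the other 3 that the gap exceeded the 95% limit of Dixon's test for the group's range. Chance flags about 1 in 20 such groups. Met-1 replicate 2, the Met-1 tumor rich in fat and B cell genes, was low for Pfkl (9.97, next tumor 11.09), Tpi1 (11.56, next 12.48), Pgk1 (11.55, next 12.67), Pkm (11.42, next 12.21), Ldha (12.65, next 13.07), Pdk1 (8.31, next 9.10), Egln3 (9.78, next 11.80), Car9 (7.32, next 9.91), Bnip3 (9.62, next 10.65) and Ddit4 (9.85, next 10.72). The means over enzymes (-0.57, next 0.13) and prolyl hydroxylases (-0.60, next 0.72) of that tumor were low too.

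F311 replicate 1, also rich in both, was low for Slc16a3 (7.91, next 11.23), Pgam1 (11.29, next 12.25) and Pkm (11.24, next 12.29). Of the other tumors rich in fat or B cell genes, 6DT1 replicate 2 was high for Aldoc (10.79, next 9.76), EMT-6 replicate 3 was low for Pgk1 (12.51, next 12.69) and high for Epas1 (10.74) and for the mean of both factors (0.59, next 0.26), and E0771 replicate 1 was high for the mean of both factors (0.44, next -0.47).

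D2A1 replicate 1, which was not among those tumors, was high for Slc16a3 (10.12, next 9.24), Higd1a (7.20, next 6.77), the mean of the 31 genes (0.26, next -0.11) and that of the hypoxia targets (0.42, next -0.15). Single values stood apart for Hk1 in HRM-1 replicate 3 (12.40, next 12.68), Aldoa in TS/A-E1 replicate 1 (13.06, next 12.97), Ldha in D2A1 replicate 3 (13.26, next 13.16), Hif1a in 6DT1 replicate 4 (11.37, next 11.08), Ddit4 in M6 replicate 3 (10.17, next 10.96), P4ha2 in M6 replicate 4 (9.19, next 8.59), the mean of the 31 genes in E0771 replicate 3 (-0.14, next -0.05) and the mean of the prolyl hydroxylases in R3T replicate 3 (-0.61, next -1.27). E0771 replicate 3 and M6 replicate 3 had the highest skeletal muscle scores, 4.17 and 3.26.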

How the results depend on the processing

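Of the 103 calls of single genes in the contrasts of a model against the other 11, 20 were kept under every alternative, 82 ended with the methods' t-test, 51 on leaving out some tumor or model and 12 without the tumors rich in fat or B cell genes. The methods' t-test sets a model against the pooled 44 other tumors, so that differences among those models enter its error, and called 0 genes in 4T1, F311, HRM-1 and MVT-1, 1 in D2A1 and TS/A-E1, 2 in M6, 3 in 6DT1, EMT-6 and R3T and 4 in E0771 and Met-1. Without the tumors rich in fat or B cell genes 12 genes were called in 4T1, 15 in D2A1, 8 in HRM-1, 10 in MVT-1, 19 in R3T and 8 in TS/A-E1, and Pgk1 in 6DT1 turned from -0.51 to 0.073 without passing (adjusted p = 0.603). With arrays centred on their medians HRM-1 had 1, and the calls of Tpi1 in 4T1, Pgk1 in 6DT1, Car9 and Ddit4 in D2A1, Kdm3a, Aldoa and Higd1a in M6, Pfkp and Tpi1 in 6DT1, Bnip3 in E0771, Aldoa, Ankrd37 and Pfkp in EMT-6, Hk1 in F311, Pfkl in TS/A-E1 and Hif1a in HRM-1, MVT-1 and R3T ended. Quantile normalization ended those of Car9 in D2A1, Ankrd37 and Pfkp in EMT-6 and Aldoa and Higd1a in M6, and averaging clusters those of Bnip3 in E0771, Hk1 in F311 and Higd1a in M6. Quantile normalization, averaging the clusters of a gene, omitting the dimmest 30% of genes, the trend and the robust prior moved no count by more than 1.5 times.

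Leaving out single tumors (or, for the contrasts, models) gave 22 to 30 genes for the F-test, 4 to 8 for 4T1, 5 to 15 for 6DT1, 7 to 11 for D2A1, 8 to 14 for E0771, 6 to 15 for EMT-6, 3 to 10 for F311, 1 to 3 for HRM-1, 9 to 15 for M6, 3 to 7 for MVT-1, 7 to 13 for Met-1, 7 to 12 for R3T, 2 to 6 for TS/A-E1 and 0 for BALB/c against FVB/N. With the model as a random block over 40 tumors 1 gene passed for BALB/c against FVB/N.

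The mean over the 31 genes in R3T was -0.31 as a median over genes and -0.38 with genes scaled by their SD. That of E0771, -0.07, was 0.016 as a median, 0.0092 with arrays centred and -0.017 with genes scaled. Over replicate numbers left out in turn, the distance between models was 0.79 to 1.01. Ldha and Pdk1 passed with model medians (r = 0.78, adjusted p of the permutation test 0.027), without replicate 2 (0.021) and without replicate 3 (0.00154), and r was 0.61 to 0.86 on leaving out a replicate number. Aldoa and Aldoc turned to 0.025 with model medians. Hk1 and Hk2 turned to -0.23 without F311 and R3T, and spanned -0.028 to 0.41 on leaving out a replicate number, and Hif1a and Car9 turned to -0.29 without 6DT1 and EMT-6. With the other Hk1 cluster, Hk1 and Hk2 had an r of 0.41 (permutation p = 0.186).

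The labels name no pairing of tumors by replicate number. Of 264 same-numbered pairs 100 had correlated deviations over 0.1, and the median r was 0.033, against 0.003 for different numbers. Of the 48 tumors, 17 had their best match in another model in a tumor of their own number. Whether the numbers carry a weak likeness was not tested. With the replicate block 26 genes passed the F-test, 8 were called in 4T1, 10 in 6DT1, 9 in D2A1, 13 in E0771, 14 in EMT-6, 8 in F311, 2 in HRM-1, 15 in M6, 10 in Met-1, 4 in MVT-1, 8 in R3T (without Pfkl) and 4 in TS/A-E1, and 1 for BALB/c against FVB/N with the random block.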

Other observations

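Among genes outside the lists, those whose signal was most like the mean of the 31 genes over the 48 tumors were Maff (r = 0.77), a small bZIP transcription factor, Gfpt1 (0.76), the first enzyme of the hexosamine pathway, Lrrc42 (0.75), Mgarp (0.75), a mitochondrial protein, the desmosomal Pkp2 (0.75), Plxnb2 (0.73), the collagen lysyl hydroxylase Plod2 (0.72) and Xpnpep1 (0.71). In deviations from model means the leading genes were Pgf (0.89), the placental growth factor of the VEGF family, Mgarp (0.89), the RNA demethylase Alkbh5 (0.88), the stress factor Atf3 (0.88), Ier3 (0.87), Npepps (0.87), Smtn (0.87) and Ppme1 (0.87). Pgf had an r of only 0.32 over the 48 tumors without removal of model means. These values describe 48 tumors of 12 models that share arrays and host content, and genes are not independent.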
